A study of Mus musculus with 16 samples.

Results

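The TNF superfamily was followed in mouse bone marrow-derived macrophages (BMMs) that were activated with LPS and immune complexes (ICs) in the presence or absence of a γ-secretase inhibitor (GSI). Members were taken by name: every gene whose symbol starts with Tnfsf (ligands) or Tnfrsf (receptors), plus Tnf, Lta, Ltb, Fasl, Fas, Cd40, Cd40lg, Ltbr, Cd27, Cd70 and Eda2r. This gave 44 of the 47069 genes counted, namely 17 ligands, 25 receptors, the readthrough transcript Tnfsfm13 and the RNA Tnfsf13os from the opposite strand. Cells of C57BL/6 mice aged 8 to 10 weeks were grown for 7 days in medium with L929-conditioned supernatant, primed overnight with 10 ng/mL IFNγ and activated for 1 hr with 100 ng/mL Salmonella LPS and ovalbumin bound by rabbit IgG. The groups differed in the addition of 25 μM DAPT, a GSI, or of its vehicle DMSO at 0.01%, with 2 replicates each. By the paper's methods DAPT or DMSO was on the cells overnight before activation, while some of its figure legends give a shorter pretreatment. A difference between the groups may thus have been present before LPS/ICs were added, which was not tested. All 4 libraries were primed and activated and no resting cells were sequenced, so induction of a member by LPS/ICs was not measured. DAPT blocks γ-secretase, which cleaves Notch receptors and other membrane proteins, so the comparison is between inhibited and uninhibited γ-secretase and not between cells with and without Notch. The labels do not say whether replicates came from separate mice or cultures, and the p-values then measure only the spread between these samples, which may be technical.

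TNF superfamily ligands are trimeric proteins made on the cell surface, and several, TNF among them, can be released by proteases. They bind receptors that either recruit TRAF adaptors and activate NF-κB and MAP kinases or carry a death domain and can start apoptosis. Macrophages are a main source of TNF, express its receptors, and use other ligands of the family, such as OX40L (Tnfsf4), 4-1BBL (Tnfsf9) and LIGHT (Tnfsf14), in contacts with T cells, whereas BAFF (Tnfsf13b) sustains B cells.

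Libraries held 42694655 to 56932059 counts after the 4 runs of each replicate were summed, and TMM normalization factors lay between 0.997 and 1.008. A count of 0 allows up to 3 counts, or 0.0527 to 0.0703 CPM (counts scaled to library size), for counting error only. The macrophage markers Csf1r, Adgre1, Cd68, Itgam, Mertk, Fcgr1 and Lyz2 were all present. Of these 7, 5 fell with GSI and Mertk rose, the sum being 10430 and 10723 CPM with DMSO and 8403 and 9186 CPM with GSI. Without DMSO replicate 2 or without GSI replicate 1, 3 of the 7 were lower, since Adgre1 and Lyz2 lost the call. In bulk RNA fewer cells of a type and less RNA per cell cannot be told apart, and the part of the marker change in the results was not tested. Markers of other cells were scarce: Cd3g was at 0 in all libraries, Cd3d and Cd3e had at most 2 counts, and the summed levels were at most 3.79 CPM for 7 T cell markers, 0.538 CPM for 5 B cell markers, 0.0232 CPM for 4 NK cell markers, 1.29 CPM for 7 neutrophil markers, 5.53 CPM for 5 dendritic cell markers, 1.12 CPM for 4 mast cell or basophil markers and 0.141 CPM for 5 stromal markers. Within these lists Lck (1.19 and 1.02 CPM with DMSO, 2.71 and 2.13 CPM with GSI) and Kdr rose and Pecam1 fell, Kdr making up most of the 3 endothelial markers (12.3 to 12.4 CPM with DMSO, 31.8 and 34.5 CPM with GSI). Kit (log2 0.83) and Xcr1 (log2 −0.42) passed the test with FDRs of 0.0233 and 0.0175, but not with DESeq2 (0.204 and 0.127), nor without DMSO replicate 1 (0.142 and 0.107), nor, for Kit, without GSI replicate 1 (0.153) and, for Xcr1, without GSI replicate 2 (0.0872). Cd4 (T cells, log2 0.77, FDR = 0.0525) and Cd68 (macrophages, log2 0.18, FDR = 0.0616) did not pass in edgeR and passed under 5 alternatives each. For Cd68 these included the fit of all 16 runs, which takes repeat runs for replicates.

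GSI changed many members by moderate amounts, more often downward than upward, while Tnf itself did not pass the test. Of the 34 members with enough counts to be tested, 18 had a false discovery rate (FDR, the Benjamini-Hochberg adjusted p of edgeR's quasi-likelihood test over 13211 genes) under 0.05, or 52.9%, against 40.8% of all genes tested. There were 12 members lower with GSI (35.3% of the 34, against 21.9% of all genes) and 6 higher (17.6%, against 19.0%). The lower members were the ligands Tnfsf14, Tnfsf4 and Tnfsf9 and the receptors Tnfrsf18, Tnfrsf13b, Tnfrsf10b, Tnfrsf12a, Tnfrsf21, Tnfrsf26, Tnfrsf23, Tnfrsf14 and Tnfrsf1b. The higher members were the ligands Tnfsf13b, Tnfsf12 and Tnfsf10 and the receptors Tnfrsf9, Fas and Ltbr. The median log2 fold change was −0.13 over the 34 members and 0.01 over all genes, and the median absolute change was 0.40 and 0.24. Ligands and receptors had different medians: 0.08 over the 13 ligands tested (3 lower, 3 higher) and −0.23 over the 19 receptors tested (9 lower, 3 higher), a difference that was not tested. The groups of libraries did not overlap for 28 of 34 members, Tnfrsf9 and Eda2r included, against 70.6% of all genes. Lack of overlap was thus frequent, and it is given below as a description only. With the additional demand of an absolute log2 fold change above 1.5, which 2.91% of all genes met, Tnfrsf9 was the 1 member called. Tnfrsf9 and Eda2r reached the count minimum of the test (10 counts at the median library size, or 0.204 CPM, in 2 libraries) only through the group in which they were higher, GSI for Tnfrsf9 and DMSO for Eda2r, so their entry into the test depended on the difference itself. Without these, 17 of 32 members were called, 12 lower and 5 higher, with a median of −0.13, and 0 met the additional demand. Of the receptors, 17 then remained, 9 of them lower and 2 higher, with a median of −0.23.

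**Figure D1:**
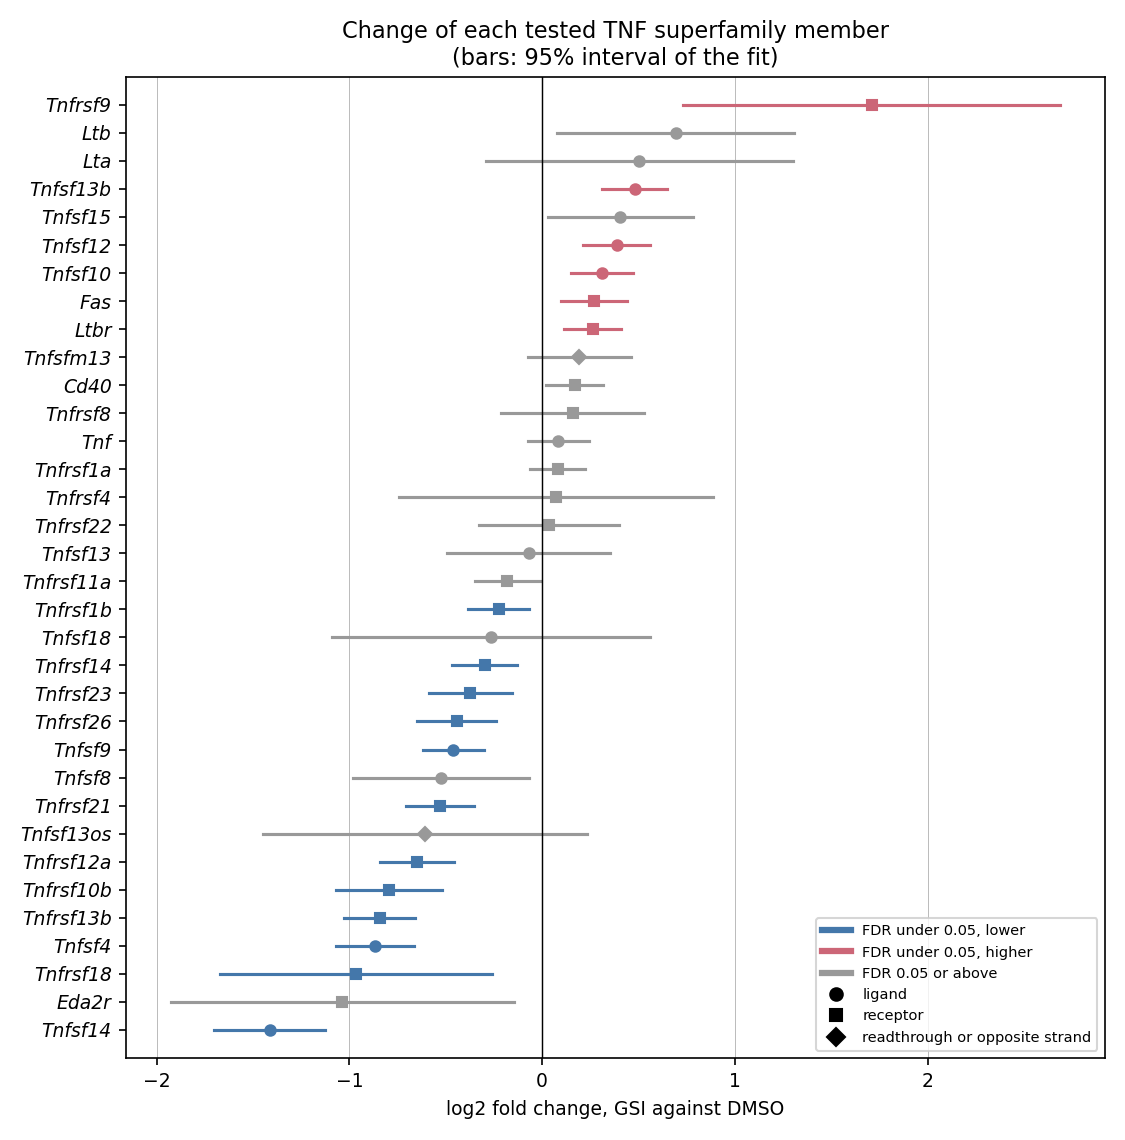
The log2 fold change of each of the 34 tested members is plotted on the x axis with the 95% interval of the edgeR fit, members ordered from the lowest (Tnfsf14, −1.41) to the highest (Tnfrsf9, 1.71). Circles stand for ligands, squares for receptors and diamonds for the readthrough and the opposite-strand RNA. Blue marks the 12 members lower at an FDR under 0.05, red the 6 higher and grey the 16 that did not pass.

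The family spanned a wide range of levels, compared here as RPKM, which is CPM divided by the exon length in kb and is the only scale used between genes. Tnf, the founding cytokine, stood at 4463 and 4693 RPKM with DMSO and 4956 and 4749 RPKM with GSI, in 3rd place among all genes, and took 0.737% to 0.810% of all counts. Tnfsf9 followed at 1229 and 1165 RPKM with DMSO and 910 and 830 RPKM with GSI, and these levels did not overlap with those of Tnf or of any other member. Tnf and Tnfsf9 together made up nearly all of the ligand RPKM, Tnf giving 77.6% and 79.2% of it with DMSO and 83.6% and 84.2% with GSI, and Tnfsf9 21.4% and 19.7% with DMSO and 15.4% and 14.7% with GSI. Among receptors Cd40 was highest, with a mean of 246 RPKM. Tnfrsf1b and Tnfrsf1a were next, and their order differed between the groups. With DMSO, Tnfrsf1b (137 and 150 RPKM) lay above Tnfrsf1a (124 and 125 RPKM), and with GSI, Tnfrsf1b (119 and 127 RPKM) lay below Tnfrsf1a (130 and 133 RPKM), without overlap in either group. This change of order was not tested, and it depends on the exon lengths of the annotation (3818 bases for Tnfrsf1b and 2591 for Tnfrsf1a). The transcripts expressed may differ in length from these. The same limit holds for other genes at close levels. Ltbr followed at 37.4 RPKM. By the mean over all 4 libraries Tnfsf12, Tnfrsf14, Tnfsf4 and Fas came next, in an order that differed between the groups. With DMSO the libraries of Tnfsf12, Tnfrsf14 and Tnfsf4 overlapped at 19.6 to 23.3 RPKM, above Fas at 15.4 and 13.3 RPKM, which overlapped with Tnfrsf12a (14.99 and 15.59 RPKM). With GSI, Tnfsf12 was highest of the 4 (28.6 and 24.9 RPKM), Tnfrsf14 and Fas overlapped at 16.5 to 17.7 RPKM, and Tnfsf4 was lowest (10.7 and 13.1 RPKM), overlapping with Tnfsf10 (13.5 and 12.8 RPKM). The remaining tested members had means over the 4 libraries of 12.5 RPKM or less.

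**Figure D2:**
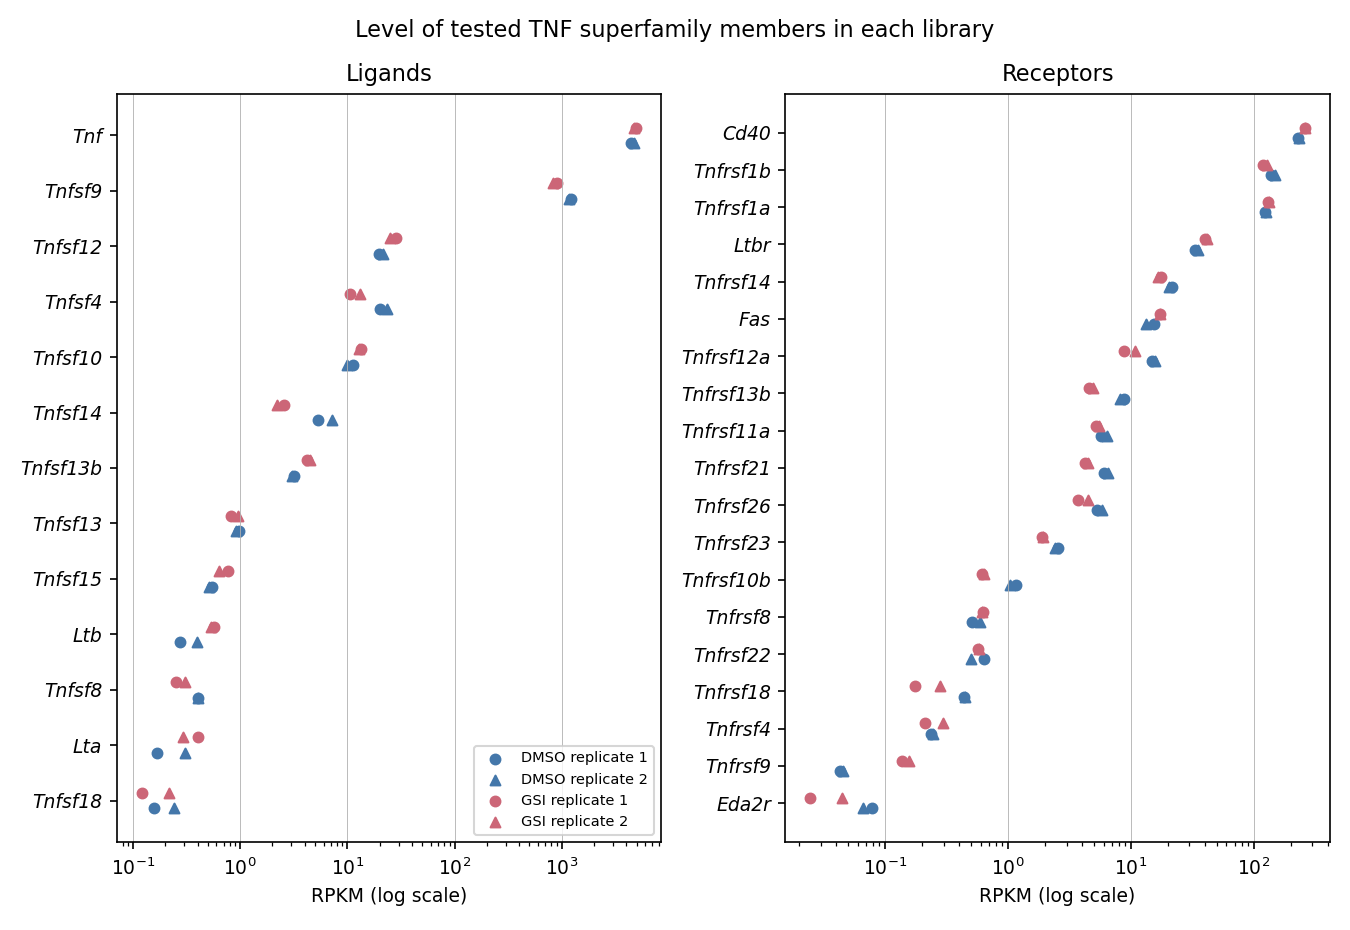
RPKM on a log scale is shown for the 13 ligands and 19 receptors tested, with 1 point per library, blue for DMSO, red for GSI, circles for replicate 1 and triangles for replicate 2. Tnf and Tnfsf9 lie above all other ligands, and Cd40, Tnfrsf1b and Tnfrsf1a above all other receptors.

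The 10 members that were not tested had at most 4 counts in any library. Tnfsf11 (RANKL), Cd40lg and Tnfrsf19 had 0 counts throughout, and Fasl, Cd70, Cd27, Tnfrsf11b, Tnfrsf13c, Tnfrsf17 and Tnfrsf25 had 0 to 4 counts. In 8 of the 10, every library stayed under 3 counts. The ligands CD40L, FasL, RANKL and CD70, known from lymphocytes among other cells, were at or near the detection limit, as were the lymphocyte receptors Cd27, Tnfrsf13c and Tnfrsf17.

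Promoter windows of 250 bases before to 50 bases after the gene start were available for 33 of the 44 members (37 windows, RefSeq on GRCm38.p6) and are shown for 4 members because their capitals mark the motifs counted over the family. The motifs were searched on both strands: the NF-κB consensus, TGANTCA (AP-1 type) and GTGGGAA (RBPJ type, RBPJ being the DNA-binding partner of Notch). Sequences are printed in the direction of the gene, 5′ to 3′. Tnfsf14, the member that fell most, holds TGANTCA 160 bases before the start. Tnfrsf9, the called member with the highest fold change, though on few counts, holds in the second of its windows overlapping matches to the NF-κB consensus, the first beginning 43 bases before the start, and TGANTCA 15 bases before it. Tnfsf13b, which rose, holds TGANTCA in the window shown, 127 bases before the gene start used for it. In its other, overlapping window the same site lies 39 bases after the gene start used there. Tnfrsf23, which fell, is the 1 matched member with GTGGGAA, 121 bases before the start.
Tnfsf14, chr17:57194132-57194431, minus strand: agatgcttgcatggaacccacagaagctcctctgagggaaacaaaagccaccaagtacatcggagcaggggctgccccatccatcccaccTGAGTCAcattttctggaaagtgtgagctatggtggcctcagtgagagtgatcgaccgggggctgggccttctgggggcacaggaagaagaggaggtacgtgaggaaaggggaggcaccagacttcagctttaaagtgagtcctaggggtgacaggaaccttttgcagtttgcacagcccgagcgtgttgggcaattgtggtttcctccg
Tnfrsf9, chr4:150927749-150928048, plus strand: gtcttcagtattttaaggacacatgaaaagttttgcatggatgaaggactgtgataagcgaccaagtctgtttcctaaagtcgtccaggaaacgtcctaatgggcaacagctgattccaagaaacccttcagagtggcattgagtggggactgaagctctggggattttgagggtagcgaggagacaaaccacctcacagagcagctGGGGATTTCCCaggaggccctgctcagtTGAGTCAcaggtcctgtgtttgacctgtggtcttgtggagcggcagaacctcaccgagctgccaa
Tnfsf13b, chr8:10006383-10006682, plus strand: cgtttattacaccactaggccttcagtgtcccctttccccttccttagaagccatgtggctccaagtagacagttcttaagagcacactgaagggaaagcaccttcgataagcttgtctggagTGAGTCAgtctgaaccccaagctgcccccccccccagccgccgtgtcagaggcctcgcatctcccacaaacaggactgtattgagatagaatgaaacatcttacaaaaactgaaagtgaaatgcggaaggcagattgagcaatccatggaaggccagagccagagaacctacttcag
Tnfrsf23, chr7:143685826-143686125, minus strand: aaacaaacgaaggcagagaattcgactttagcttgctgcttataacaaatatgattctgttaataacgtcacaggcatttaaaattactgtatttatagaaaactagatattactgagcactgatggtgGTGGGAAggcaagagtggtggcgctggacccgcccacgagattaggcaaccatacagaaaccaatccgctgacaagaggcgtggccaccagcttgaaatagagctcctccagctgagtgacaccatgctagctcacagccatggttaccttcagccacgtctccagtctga

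Over all 32851 windows, 8.46% held the NF-κB consensus, 7.81% TGANTCA and 6.38% GTGGGAA. In the 37 windows of members these were found in 4 (10.8%), 7 (18.9%) and 1 (2.70%). By result, the NF-κB consensus was found in 0 of the 8 matched members that fell and in 1 of the 5 that rose (Tnfrsf9, tested only because of its GSI libraries), and otherwise in Ltb, Tnfrsf8 and Tnfrsf25. TGANTCA was found in 1 of the 8 that fell (Tnfsf14) and in 3 of the 5 that rose (Fas, Tnfrsf9 and Tnfsf13b), and also in Tnfrsf8 and Tnfsf13, which did not pass the test. No match of 1 motif overlapped a match of another motif. These matches describe the letters in the windows and no binding was measured.

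Tnf was the ligand with the most reads, and its change with GSI did not pass the test. Its level was 7315 and 7691 CPM with DMSO and 8124 and 7783 CPM with GSI, or 7503 ± 266 and 7953 ± 241 CPM (mean ± SD, n = 2 each). The GSI libraries were the higher ones by little, with a log2 fold change of 0.08 (SE 0.0757, 95% interval −0.07 to 0.24, FDR = 0.400 in edgeR). A change of Tnf mRNA beyond this interval was thus not seen at 1 hr after activation, and TNF protein was not measured in these libraries.

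Of the 13 ligands tested, 3 fell (23.1%, against 21.9% of all genes). Tnfsf14 (LIGHT, a ligand of HVEM and of the lymphotoxin β receptor) had 9.81 and 13.4 CPM with DMSO and 4.70 and 4.07 CPM with GSI, a 2.66-fold decrease (log2 fold change −1.41, SE 0.138, FDR = 7.75e-08 in edgeR). Tnfsf4 (OX40L, which costimulates T cells through OX40) had 36.9 and 42.9 CPM with DMSO and 19.7 and 24.1 CPM with GSI, a 1.82-fold decrease (log2 −0.87, SE 0.0961, FDR = 4.24e-07). Tnfsf9 (4-1BBL, the ligand of the costimulatory receptor 4-1BB) fell from 1585 and 1503 CPM to 1174 and 1071 CPM, a 1.38-fold decrease (log2 −0.46, SE 0.0763, FDR = 6.33e-05). Tnfsf9 shares 192 exon bases with Gm11110 on the other strand, which had 105 to 171 counts per library. In all 3 genes both GSI libraries lay below both DMSO libraries, with DMSO replicates of Tnfsf14 farther apart than its GSI replicates. All 3 passed under each of the 12 alternative settings that gave an FDR. Tnfsf8 (CD30L) had 1.53 CPM in each DMSO library and 0.952 and 1.17 CPM with GSI, without passing the test (FDR = 0.0605). It passed under 5 of its 12 alternatives, among them the 16 runs (FDR = 0.0151), a fit that takes repeat runs for replicates. Tnfsf18 (GITRL) and Tnfsf15 (TL1A) had FDRs of 0.627 and 0.0788, and Tnfsf15 passed under 2 of 12 alternatives, with the 16 runs and without GSI replicate 2 (FDR = 0.0278 and 0.0456).

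Another 3 of the 13 ligands rose (23.1%, against 19.0% of all genes). Tnfsf13b (BAFF) had 21.8 and 20.8 CPM with DMSO and 28.9 and 30.5 CPM with GSI, 1.39-fold higher (log2 0.48, SE 0.0809, FDR = 7.62e-05 in edgeR). Tnfsf12 (TWEAK) had 29.6 and 32.3 CPM with DMSO and 43.3 and 37.8 CPM with GSI (log2 0.39, SE 0.0832, FDR = 0.000874). Tnfsf10 (TRAIL, which can kill cells through death receptors) had 59.4 and 52.3 CPM with DMSO and 71.0 and 67.7 CPM with GSI (log2 0.31, SE 0.0771, FDR = 0.00280). The GSI libraries were above the DMSO libraries in each, but Tnfsf10 lost the call without DMSO replicate 2 (FDR = 0.0803). Tnfsf12 shares 48.3% of its exon bases on the same strand with the readthrough Tnfsfm13, as Tnfsf13 (APRIL) does 60.0% of its own, so their counts are uncertain. Tnfsf13 and Tnfsfm13 had log2 fold changes of −0.07 and 0.19 without passing the test, and the opposite-strand RNA Tnfsf13os had a log2 fold change of −0.61 (14 to 56 counts, FDR = 0.241). Its value was −1.13 without DMSO replicate 1 (FDR = 0.0152) and turned to 0.46 without DMSO replicate 2, so no direction is given for it.

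Lta and Ltb, the lymphotoxins, sit on either side of Tnf within 10.9 kb of chromosome 17 (GRCm38, 35194439 to 35205351) and were low while Tnf was among the highest genes of all. Lta had 10 to 27 counts and Ltb 18 to 42 counts per library, or mean levels of 0.293 and 0.445 RPKM beside 4715 RPKM for Tnf. Ltb had 0.418 and 0.599 CPM with DMSO and 0.869 and 0.810 CPM with GSI, with FDR = 0.0662 in edgeR, and passed under 3 of its 11 alternatives (FDRs from 0.0408 to 0.343). The family holds 9 such groups of members with gaps of at most 100 kb, covering 24 members. In the group of 88.9 kb on chromosome 17 (57105325 to 57194177), Tnfsf9 and Tnfsf14 both fell and Cd70, between them, had 1 to 4 counts. In the group on chromosome 7 (143607659 to 143685872), Tnfrsf26 and Tnfrsf23 fell and Tnfrsf22 did not pass. On chromosome 6 (125232622 to 125362484), Ltbr rose, its neighbour Tnfrsf1a did not pass and Cd27 had at most 1 count.

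The receptors of TNF and of CD40L were the most abundant, and 1 of the 3, Tnfrsf1b, passed the test. Tnfrsf1a (TNFR1, the death domain receptor of TNF) had 321 and 324 CPM with DMSO and 337 and 345 CPM with GSI (log2 0.08, SE 0.0690, 95% interval −0.06 to 0.22, FDR = 0.375 in edgeR). Tnfrsf1b (TNFR2, which has no death domain) had 524 and 573 CPM with DMSO and 453 and 485 CPM with GSI, a 1.17-fold decrease (log2 −0.23, SE 0.0750, FDR = 0.0207). Cd40, the receptor through which T cells help macrophages, had 781 and 800 CPM with DMSO and 891 and 885 CPM with GSI (log2 0.17, SE 0.0717, 95% interval 0.02 to 0.32, FDR = 0.0673). The libraries of the groups did not overlap in any of the 3, which was also so for 70.6% of all genes tested. The call of Tnfrsf1b was lost without DMSO replicate 2 (FDR = 0.222) and without GSI replicate 1 (FDR = 0.105). Cd40 passed under 3 of its 12 alternatives, namely DESeq2 (FDR = 0.0392), the block for the replicate number (FDR = 0.0320) and the 16 runs. The fit with 16 runs takes repeat runs for replicates.

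Receptors that fell further were of lower level. Tnfrsf13b (TACI, a receptor of BAFF and APRIL) had 24.8 and 23.3 CPM with DMSO and 12.9 and 13.9 CPM with GSI, a 1.79-fold decrease (log2 −0.84, SE 0.0877, FDR = 1.85e-07 in edgeR). Tnfrsf10b (the TRAIL death receptor of the mouse) had 6.30 and 5.68 CPM with DMSO and 3.37 and 3.50 CPM with GSI (log2 −0.80, SE 0.131, FDR = 6e-05). Tnfrsf12a (Fn14, the TWEAK receptor) had 29.0 and 30.1 CPM with DMSO and 17.0 and 20.7 CPM with GSI (log2 −0.65, SE 0.0921, FDR = 1.01e-05). These 3 genes passed under each of the 12 alternatives that gave an FDR, and the GSI libraries lay below the DMSO libraries. Tnfrsf21 (DR6, a death domain receptor) had 24.9 and 26.9 CPM with DMSO and 17.4 and 18.5 CPM with GSI (log2 −0.53, SE 0.0847, FDR = 4.4e-05). Tnfrsf14 (HVEM, a LIGHT receptor) had 31.0 and 29.6 CPM with DMSO and 25.5 and 23.8 CPM with GSI (log2 −0.30, SE 0.0801, FDR = 0.00540).

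Tnfrsf26 and Tnfrsf23, which lie on either side of Tnfrsf22, also fell, and Tnfrsf23 is known as a decoy receptor that binds TRAIL without a death domain. Tnfrsf26 had 17.1 and 18.7 CPM with DMSO and 11.998 and 14.3 CPM with GSI (log2 −0.44, SE 0.0988, FDR = 0.00118 in edgeR). Tnfrsf23 had 10.1 and 9.59 CPM with DMSO and 7.49 and 7.67 CPM with GSI (log2 −0.37, SE 0.104, FDR = 0.00698), and lost the call without DMSO replicate 1 (FDR = 0.0518). The third gene of the group, Tnfrsf22, another decoy receptor, had 2.67 and 2.10 CPM with DMSO and 2.40 and 2.45 CPM with GSI, with overlapping groups. Tnfrsf26 and Tnfrsf23 share 107 and 164 exon bases with a transcript on the other strand.

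Of the receptors that rose, Ltbr (the lymphotoxin β receptor, which also binds LIGHT) and Fas (the death receptor of FasL) were well expressed. Ltbr had 77.8 and 82.3 CPM with DMSO and 94.2 and 97.7 CPM with GSI (log2 0.26, SE 0.0707, FDR = 0.00561 in edgeR). Fas had 31.7 and 27.4 CPM with DMSO and 35.6 and 35.4 CPM with GSI (log2 0.27, SE 0.0827, FDR = 0.0133). The groups did not overlap, but Ltbr lost the call without DMSO replicate 1 (FDR = 0.0780) and Fas without DMSO replicate 2 (FDR = 0.237). Tnfrsf9 (4-1BB) had 5 and 7 counts with DMSO and 18 and 21 with GSI, 3.27-fold higher (log2 1.71, SE 0.469, 95% interval 0.73 to 2.69, FDR = 0.00621), and did not pass with DESeq2 (FDR = 0.119). Tnfrsf18 (GITR) had 29 and 39 counts with DMSO and 13 and 21 with GSI (log2 −0.97, FDR = 0.0278). It shares 414 exon bases with Gm16008 on the other strand (3 to 6 counts per library) and lost the call without DMSO replicate 1, without DMSO replicate 2, without GSI replicate 1 and with DESeq2, with FDRs of 0.0746, 0.103, 0.190 and 0.233.

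The other receptors did not pass. Tnfrsf11a (RANK, which drives osteoclast formation) had 34.1 and 38.0 CPM with DMSO and 30.9 and 32.8 CPM with GSI (FDR = 0.0790 in edgeR). It passed under 3 of its 12 alternatives. These included the block for the replicate number (FDR = 0.0294) and the 16 runs (FDR = 0.00158), a fit that takes repeat runs for replicates. Eda2r had 7 to 22 counts per library and a log2 fold change of −1.04 (95% interval −1.93 to −0.14, FDR = 0.0586). It passed under 3 of its 10 alternatives (FDRs from 0.0293 to 0.332), and its log2 fold change ran from −1.53 to −0.68 when 1 library was left out. Tnfrsf4 (OX40) and Tnfrsf8 (CD30) had mean levels of 0.248 and 0.585 RPKM.

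**Figure D3:**
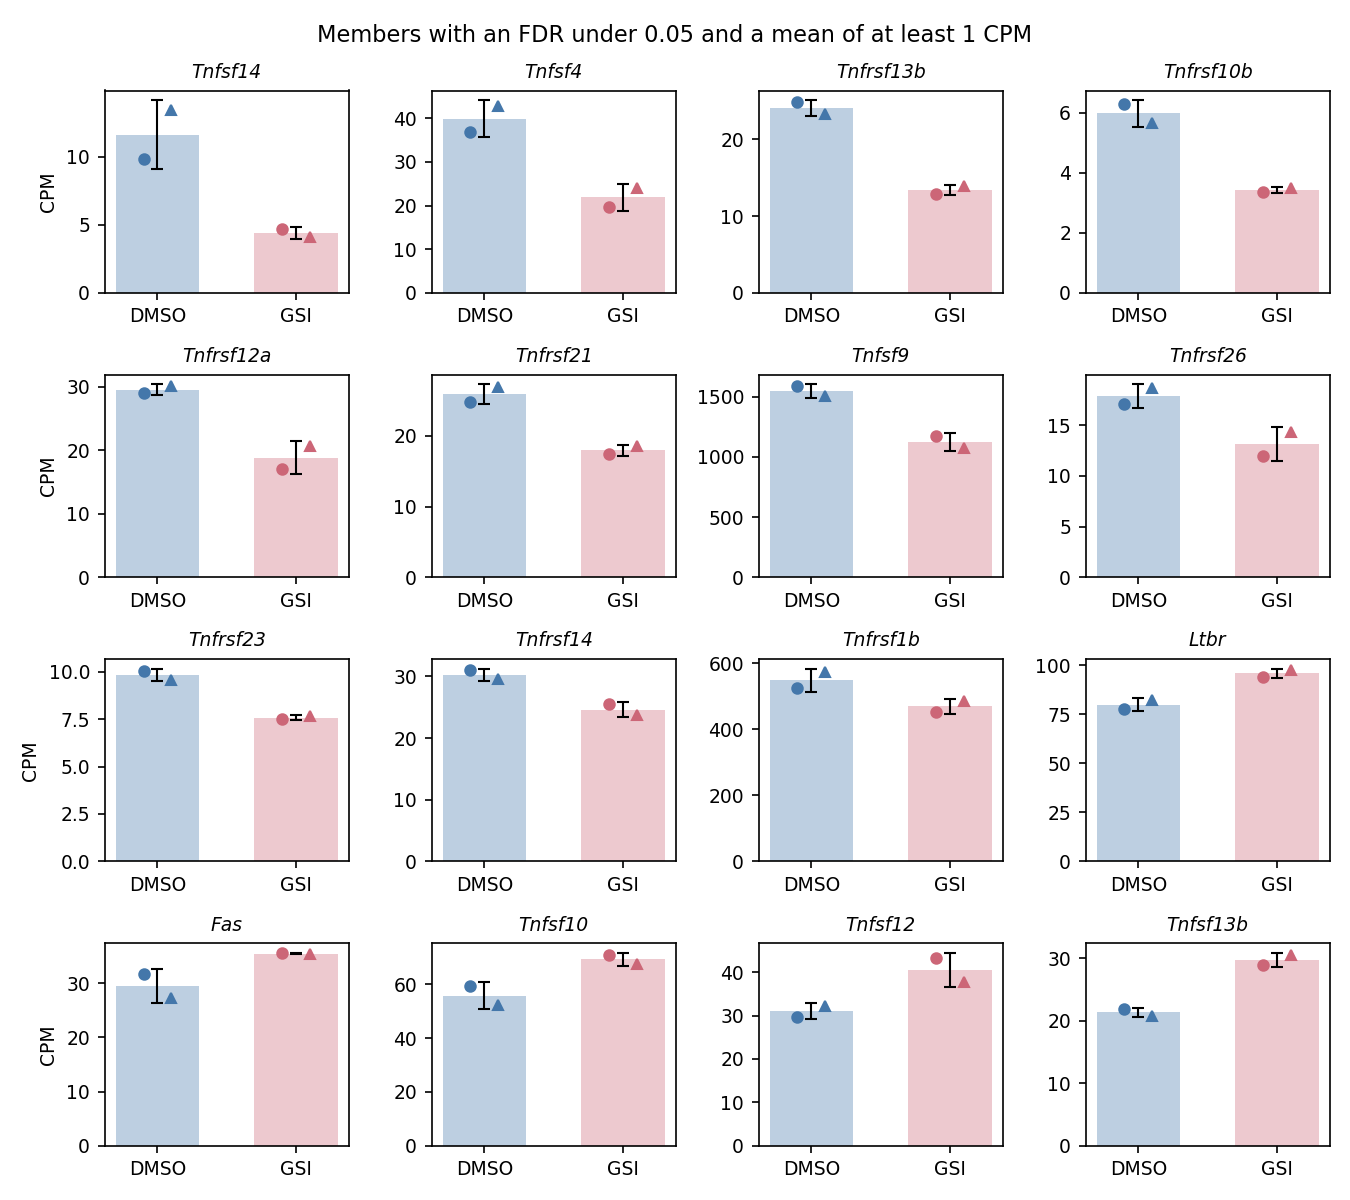
CPM is plotted from 0 for the 16 members with an FDR under 0.05 and a mean of at least 1 CPM, with bars for the mean of 2 libraries, error bars for 1 SD, circles for replicate 1 and triangles for replicate 2. In each of the 16 the DMSO and GSI points do not overlap, from Tnfsf14 at the upper left (9.81 and 13.4 CPM against 4.70 and 4.07 CPM) to Tnfsf13b at the lower right (21.8 and 20.8 CPM against 28.9 and 30.5 CPM). The 16 were chosen by their FDR in this same comparison, and 70.6% of all genes tested do not overlap. The separation therefore adds nothing to the calls.

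Members were also set side by side as ligand and receptor. The 12 pairs were written from textbook knowledge with the results known, share genes (Tnfsf14, Tnf and Tnfrsf13b each stand in more than 1 pair), and are described without a test. Ligand and receptor were both called in 6 pairs, in opposite directions in 5 of them and in the same direction in 1, or 4 and 1 of 5 without the pair of Tnfrsf9. Nothing is read from these counts, since no background for pairs was computed and calls in 3 of the 5 were lost under an alternative: Tnfrsf9 with DESeq2 (FDR = 0.119), Ltbr without DMSO replicate 1 (FDR = 0.0780) and Tnfsf10 without DMSO replicate 2 (FDR = 0.0803). The ligand was higher and the receptor lower for Tnfsf10 and Tnfrsf10b (log2 0.31 and −0.80), Tnfsf12 and Tnfrsf12a (0.39 and −0.65) and Tnfsf13b and Tnfrsf13b (0.48 and −0.84). The ligand was lower and the receptor higher for Tnfsf9 and Tnfrsf9 (−0.46 and 1.71), where the receptor had at most 21 counts and was tested only because of its GSI libraries, and for Tnfsf14 and Ltbr (−1.41 and 0.26). Tnfsf14 and its other receptor Tnfrsf14 both fell (−1.41 and −0.30).

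**Figure D4:**
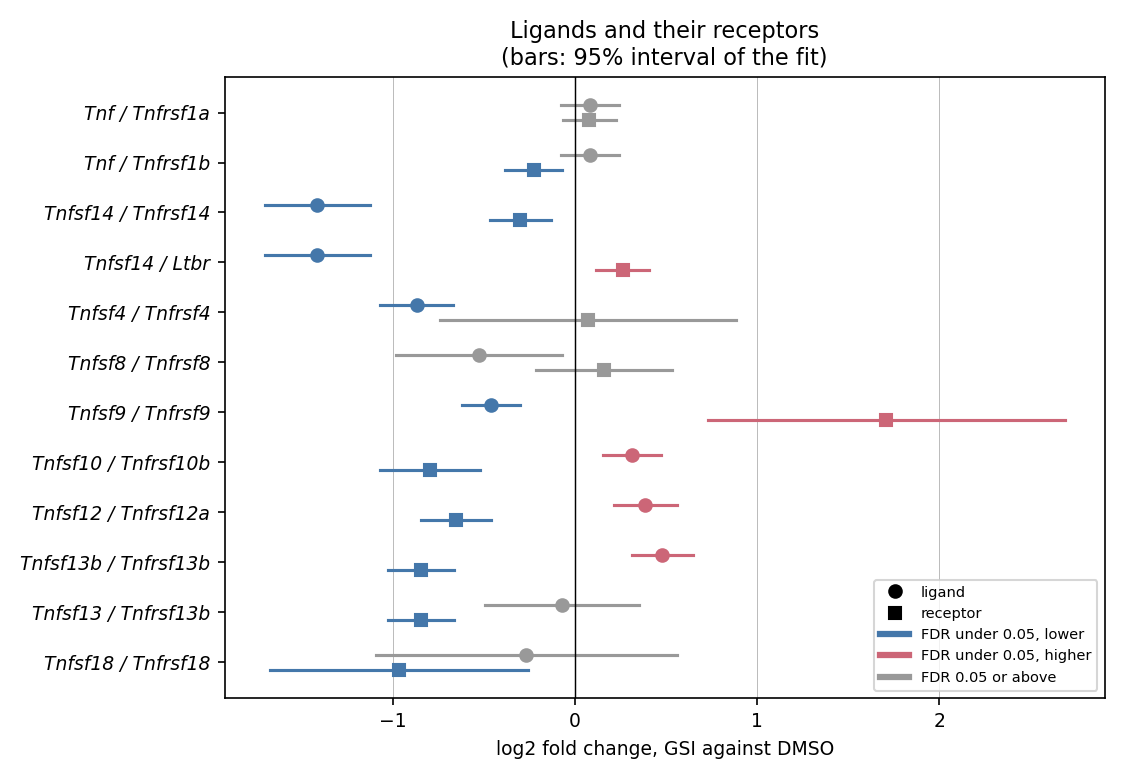
The log2 fold changes of the ligand (circle) and the receptor (square) of 12 pairs are plotted with the 95% interval of the edgeR fit, blue for lower and red for higher at an FDR under 0.05 and grey otherwise. In the pairs of Tnfsf10, Tnfsf12 and Tnfsf13b with their receptors Tnfrsf10b, Tnfrsf12a and Tnfrsf13b the circle lies right of 0 and the square left of it.

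Downstream of the receptors, 16 of the 33 genes of TNF receptor signalling passed the test (48.5%, against 40.8% of all genes), 10 lower and 6 higher with GSI, with a median log2 fold change of −0.07. The lower genes were led by Ikbkb (the kinase IKKβ, −0.45), Map3k14 (NIK, the kinase of the noncanonical NF-κB route, −0.41), Traf6 (−0.34) and Tnip1 (a partner of A20, −0.34). The higher genes were led by Mlkl (the effector of necroptosis, 0.58), Tab1 (0.39), Fadd (the adaptor of death receptors, 0.38) and Ikbkg (NEMO, 0.35). Mlkl had 106 and 93.8 CPM with DMSO and 156 and 142 CPM with GSI, and Ikbkb 119 and 124 CPM with DMSO and 89.6 and 88.4 CPM with GSI. Tnfaip3 (A20) had a log2 fold change of −0.15 without passing. The list's counts moved when a DMSO library was left out: without DMSO replicate 1 there were 4 lower and 3 higher genes, and without DMSO replicate 2 there were 6 lower. Fadd lost its call without DMSO replicate 1 (FDR = 0.188) and with DESeq2 (FDR = 0.0638).

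Of the 7 genes of ligand shedding and processing, 1 passed the test (14.3%, against 40.8% of all genes). Adam10, a sheddase, fell from 251 and 232 CPM to 147 and 159 CPM (log2 −0.66, SE 0.0733, FDR = 4.58e-07 in edgeR), whereas Adam17, the TNF-converting enzyme, had 306 and 307 CPM with DMSO and 291 and 293 CPM with GSI (log2 −0.07, FDR = 0.455). Of the 12 genes that act on Tnf mRNA stability and translation, 3 were lower (25.0%, against 21.9% of all genes) and 0 higher (0 also at an unadjusted p under 0.05 in edgeR and under each alternative, DESeq2 included), with a median of −0.07. Zfp36l1, an RNA-binding protein that promotes mRNA decay, fell from 244 and 224 CPM to 87.0 and 83.4 CPM (log2 −1.46, SE 0.0730, FDR = 8.01e-12), Zc3h12a, an endonuclease that degrades cytokine mRNAs, fell by 0.43 on the log2 scale, and Zfp36l2 by 0.18 (FDR = 0.0481). Zfp36l2 lost the call without DMSO replicate 2 (FDR = 0.430), without GSI replicate 1 (FDR = 0.0529), without GSI replicate 2 (FDR = 0.0967), with no filter (FDR = 0.0670) and with DESeq2 (FDR = 0.0563). Zfp36 (tristetraprolin), which binds Tnf mRNA, did not pass (log2 −0.07, FDR = 0.528). Of the 4 family genes under other symbols, Eda and Edar were at 0, Ngfr had 1 count in all, and Relt had 116 to 164 counts without passing (log2 0.07, FDR = 0.774).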

How the data were processed

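RNA-seq was analysed for BMMs with DMSO or GSI (2 replicates each, 4 runs per replicate). The authors made strand-specific libraries from poly(A) RNA, aligned reads with STAR (2.5.0a in the submitters' processing notes, which name mm9 and mm10, while the methods name mm10) and deposited raw counts per gene from HTSeq. Its mode and strand setting are not given in the sources used here. The labels number 4 columns per replicate without saying what they are, and these were taken as sequencing runs. They were summed, since they differed by no more than sampling noise (chi-square per degree of freedom 1.01 to 1.03).

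The 4 libraries were fitted with edgeR 4.0.16 (R 4.3.3; filterByExpr, TMM, quasi-likelihood test, group only) on all genes, with Benjamini-Hochberg adjustment over 13211. The SE is the absolute log2 fold change divided by the square root of F. CPM used TMM-adjusted sizes, and RPKM the union exon length of GENCODE M21, which held 98.9% of the gene IDs. The fit was tested on simulated data with 4-fold changes and the same spread in every gene, so smaller changes were not covered.

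Full values are given for members with an FDR under 0.05 and a mean of at least 1 CPM, and for Tnf, Tnfrsf1a, Tnfrsf1b and Cd40. Of each other list, up to 4 genes per direction with the largest changes are named. Adam17, Tnfaip3, Zfp36, Relt and low members were added as context after their values were seen. Members, lists and pairs were chosen with earlier results of these data known. Marker lists covered macrophages, T, B, NK, dendritic, mast and stromal cells, neutrophils and endothelium.

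Alternatives were DESeq2 1.42.0, RLE or no factors, no filter, at least 10 counts in every library, a likelihood ratio test, a block for the replicate number, all 16 runs as samples, a cut-off of 1.5 on the log2 scale, and leaving out each library. The floor of 3 counts covers counting error only.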

Additional observations from a re-analysis of the deposited data

How the results depend on the processing

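Counts of members were 12 lower and 6 higher, and 0 lower and 1 higher when an absolute log2 fold change above 1.5 was also asked. Under that demand 0 signalling genes were lower and 0 higher, and the lower counts of ligand processing and of Tnf mRNA stability genes were 0 and 0. With the 16 runs as separate samples, which takes repeat runs for replicates, signalling genes were 16 lower and 10 higher, ligand processing genes 4 lower and mRNA stability genes 6 lower. Leaving out 1 library gave 10 to 14 lower and 4 to 7 higher members, 4 to 11 lower and 3 to 7 higher signalling genes, 1 to 2 lower processing genes and 2 to 3 lower stability genes. In these fits the lone library of a group was assumed to vary like the others. The labels do not say whether samples with the same replicate number shared a mouse, culture or day, and with 2 pairs the deviations of the DMSO and GSI replicates 1 (r = 0.155 over 13211 genes) do not settle it. With the replicate number as a block, 15 members were lower and 8 higher, processing genes were 2 lower, and Cd40, Tnfsf8, Tnfrsf11a, Eda2r and Ltb passed (FDR = 0.0320, 0.0391, 0.0294, 0.0393 and 0.0408, edgeR). For 21 members, the called ones and Tnf, Tnfrsf1a and Cd40, 249 values under single settings were compared. Of these, 233 kept direction and side of the threshold, 11 lost the call, 5 gained it and 0 changed sign. Among the other tested members, Tnfsf18, Tnfsf13, Tnfrsf22, Tnfrsf4 and Tnfsf13os changed sign in at least 1 fit that left out a library. The minimum of 10 counts and the 16 runs gave no value for Tnfrsf9, and the 16 runs none for Tnfrsf18. Tnf and Tnfrsf1a gained the call with the 16 runs only. The cause of these changes was not tested. With 2 libraries per group, members under 1 CPM, Tnfrsf9 and Tnfrsf18 among them, rest on few counts.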
